A study of Mus musculus with 48 samples.

Results

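The libraries described here hold RNA of β cells from mice given doxycycline, sampled every 4 h around the day. They are the 12 libraries of 48 in the series whose titles name doxycycline β cells at zeitgeber time (ZT, hours after lights on) 0, 4, 8, 12, 16 or 20, with 2 libraries at each time. The mice were males of 6 to 8 weeks that carried the reporters ProGcg-Venus, RIP-Cherry and PER2::Luc together with the ablation transgenes Insulin-rtTA and TET-DTA, and they received 300 mg of doxycycline in drinking water with 2% sucrose. In these animals the doxycycline-responsive activator is driven by an insulin promoter and switches on diphtheria toxin A, so the sorted cells are reporter-positive β cells present after the treatment. The other 2 groups used here are the 12 β-cell libraries of control mice, which carried the same transgenes and drank 2% sucrose alone, and the 12 α-cell libraries of the doxycycline mice. No group received doxycycline without the toxin transgene, so what the drug did and what the ablation did cannot be told apart. Days had 12 h of light followed by 12 h of darkness, and food was given at night only, starting 10 days before the experiments. Animals were divided equally between this cycle and an inverted cycle of light and feeding, kept for 2 weeks; which libraries came from the inverted animals is not given in the sources used here. Islets were dispersed and cells sorted by the reporters' fluorescence. The labels do not say that the 2 libraries of a time came from separate animals, so p-values measure the spread between these libraries.

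The circadian clock is a feedback loop in which BMAL1 (Arntl) pairs with CLOCK or NPAS2 and switches on the Per and Cry genes, whose proteins then block that pair. REV-ERB receptors close another loop on Arntl itself. In islets the clock times insulin secretion over the day. Feeding, hormones and the daily swing of body temperature set further rhythms that need not pass through the local clock, among them those of chaperones and of cold-inducible RNA-binding proteins.

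Library totals were 20055410 to 23686596 estimated counts in the 5 libraries of the earlier sequencing run and 50714677 to 58526995 in the 7 of the later run. In the earlier run are the first replicates of every time but ZT0; the second replicates and both ZT0 libraries are in the later run. All 20 genes of a β-cell identity list were above 0 in each of the 12 libraries. Summed markers of acinar cells, the enzyme-secreting cells around islets, were 6064 CPM (counts scaled to library size) at ZT8 replicate 2, 1344 CPM at ZT0 replicate 1 and 681 CPM at ZT16 replicate 2, and their lowest sum was 12.5 CPM. Macrophage and dendritic cell markers summed to 143 to 1893 CPM, and all 18 were above 0 in every library. In such bulk samples fewer cells of a type and less RNA per cell cannot be told apart.

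A 24 h wave fitted by cosine and sine to each gene, with the sequencing run as a term, was called at a Benjamini-Hochberg adjusted p under 0.05 in edgeR's quasi-likelihood test for 999 of 16565 genes, or 6.03%. With the replicate number as a block in place of the run, 364 genes were called. The amplitude, given here as the log2 distance from the mean to the peak, had a median of 0.41 over the called genes, against 0.23 over all genes tested. It was at least 0.5 for 319 called genes and at least 1 for 42, and an amplitude of 1 is a 4-fold span between trough and peak. Of the called peaks, 307 (30.7%) lay in the 4 h between ZT6 and ZT10, against 20.4% of all tested genes, and 435 (43.5%) in the 6 h between ZT18 and ZT24, against 30.1%. Between ZT0 and ZT4 there were 47 (4.70%), against 12.4%, and between ZT14 and ZT18 there were 45 (4.50%), against 14.1%.

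**Figure D1:**
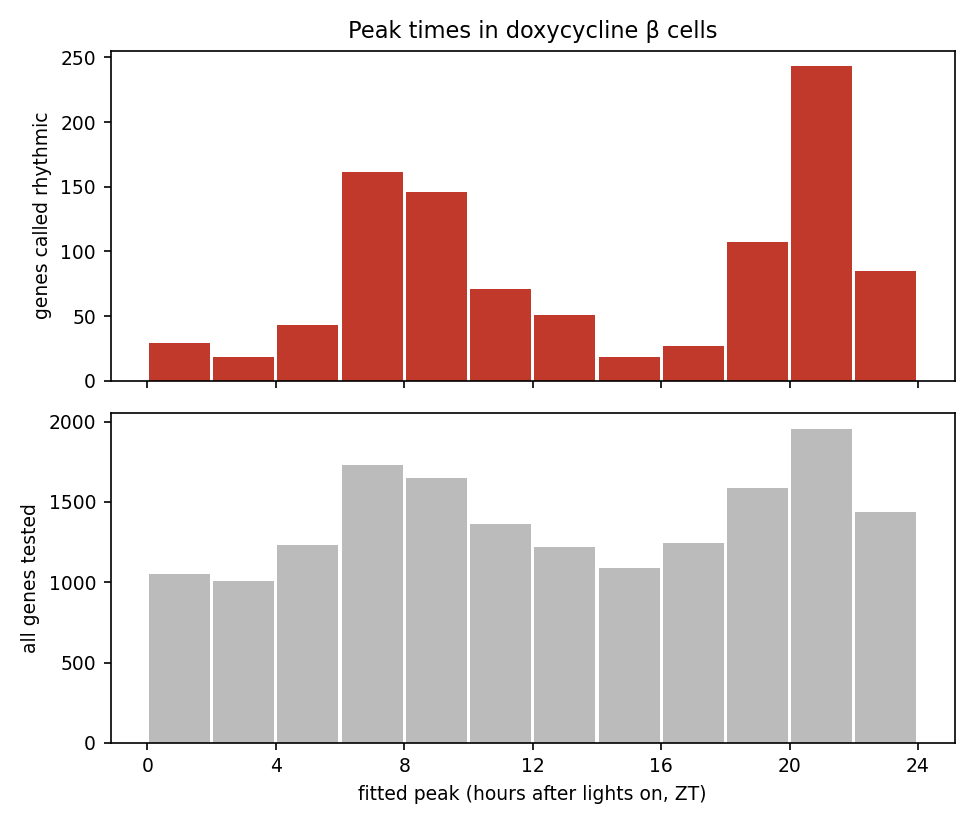
Number of genes (y axes) by fitted peak time in 2 h bins (x axis, hours after lights on) in doxycycline β cells. The upper bars count the 999 genes called rhythmic and the lower bars all 16565 genes tested; the tallest upper bar, 243 genes, is at ZT20 to ZT22, and another rise of 161 genes is at ZT6 to ZT8.

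The number of calls depended on single libraries. It was 43 without ZT20 replicate 1, 103 without ZT8 replicate 1, 218 without ZT12 replicate 1, 253 without ZT8 replicate 2, 340 without ZT16 replicate 1, 423 without ZT20 replicate 2, 492 without ZT12 replicate 2, 555 without ZT4 replicate 1, 653 without ZT4 replicate 2 and 1827 without ZT0 replicate 1. The 5 libraries of the earlier run alone gave 113 calls and the 7 of the later run alone gave 0, with 3273 of 15044 and 1386 of 16345 genes at an unadjusted p under 0.05 in edgeR. With the mean log2 CPM of the acinar markers as a covariate 404 genes were called, 14 of them chaperone and folding genes of the endoplasmic reticulum and 4 ribosome biogenesis genes, against 23 and 11 without it. When the 6 times were fitted as free levels edgeR called no gene, and 1817 of 16565 had an unadjusted p under 0.05.

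Core clock genes cycled. Of 20 measured clock genes, 8 were called, against 6.03% of all genes. Without ZT20 replicate 1 the count was 5, against 0.262% of all genes. Arntl (gene ENSMUSG00000055116.8, chromosome 7, 113207465 to 113314126, plus strand of GRCm38) had 18.6 and 29.6 CPM at ZT0, 21.4 and 14.9 at ZT4, 13.9 and 10.8 at ZT8, 5.10 and 3.46 at ZT12, 7.32 and 6.31 at ZT16 and 11.04 and 16.96 at ZT20, replicate 1 first. The lowest value of each run was at ZT12, and the highest of all was at ZT0. Its amplitude was 1.19 ± 0.15 (SE) with a peak at 1.2 ± 0.5 h (adjusted p = 0.00957, edgeR). Npas2, which can take the place of CLOCK, had an amplitude of 2.07 ± 0.23 and peaked at 2.5 h. Its level was low, with a mean of 4.30 CPM and values of 0.444 to 13.1 CPM. The repressor Nfil3 had 0.97 ± 0.11 at 0.43 h. Cry1, a repressor of the CLOCK pair, had 1.20 ± 0.13 at 22.03 h. Another 3 called clock genes peaked near lights off.

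Per3 had 3.88 and 1.42 CPM at ZT0, 1.74 and 1.87 at ZT4, 1.99 and 6.22 at ZT8, 17.6 and 17.7 at ZT12, 10.3 and 15.02 at ZT16 and 3.21 and 3.53 at ZT20. The ZT12 and ZT16 libraries, at 10.3 to 17.7 CPM, lay above all others, of which the highest was 6.22 CPM. Its amplitude was 1.68 ± 0.22 and its peak at 13.8 ± 0.5 h, a span of 10.2-fold between trough and peak. Nr1d2, encoding REV-ERBβ, had an amplitude of 0.92 ± 0.14 at 12.4 h, and the output factor Tef 0.70 ± 0.12 at 13.1 h. Of these 7 genes, Nr1d2 had an adjusted p of 0.0524 without ZT20 replicate 1 and Tef of 0.0522 without ZT12 replicate 1, 0.0587 without ZT12 replicate 2 and 0.0753 without ZT20 replicate 1. The other 5 stayed under 0.05 in every fit that left out a library. Per2 missed the threshold narrowly at an adjusted p of 0.0513, with an amplitude of 0.70 ± 0.15 and a peak at 18.2 h. Dbp, an output factor, had 0.68 ± 0.22 (adjusted p = 0.125), Per1 0.52 ± 0.15 (0.11), Cry2 0.37 ± 0.13 (0.18) and Clock 0.06 ± 0.05 (0.726). Nr1d1, encoding REV-ERBα, had a fitted amplitude of 0.09 ± 0.29 (adjusted p = 0.975). It had 39.3 and 66.4 CPM at ZT0, 159.6 and 19.4 at ZT4, 162 and 93.7 at ZT8, 149 and 76.4 at ZT12, 83.3 and 33.1 at ZT16 and 154 and 151 at ZT20. The 2 libraries of a time stood apart at every time but ZT20, most of all at ZT4.

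For a few genes with a short recognition motif before their start, RefSeq promoter windows of GRCm38.p6 are printed, with the motif letters in capitals. They show the letters that the clock and the chaperone genes carry and are a description, not a measured site. Cry1 (chr10:85185082-85185141, minus strand) holds the E-box CACGTG, the letters that BMAL1 and its partner bind. Per3 (chr4:151044790-151044896, minus strand) holds 2 copies of the D-box TTATGTAA, which DBP, TEF and NFIL3 bind. Within 250 bases before the start, on either strand, CACGTG stood in 1118 of 11858 genes with a promoter (9.43%) and TTATGTAA in 77 (0.649%). Of the called clock genes, 7 had a promoter in the table, 2 of them with the E-box and 1 with the D-box.
Cry1: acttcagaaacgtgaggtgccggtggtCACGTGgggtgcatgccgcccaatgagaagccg
Per3: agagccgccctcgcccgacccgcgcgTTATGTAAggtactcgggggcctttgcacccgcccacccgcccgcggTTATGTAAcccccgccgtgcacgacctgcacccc

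**Figure D2:**
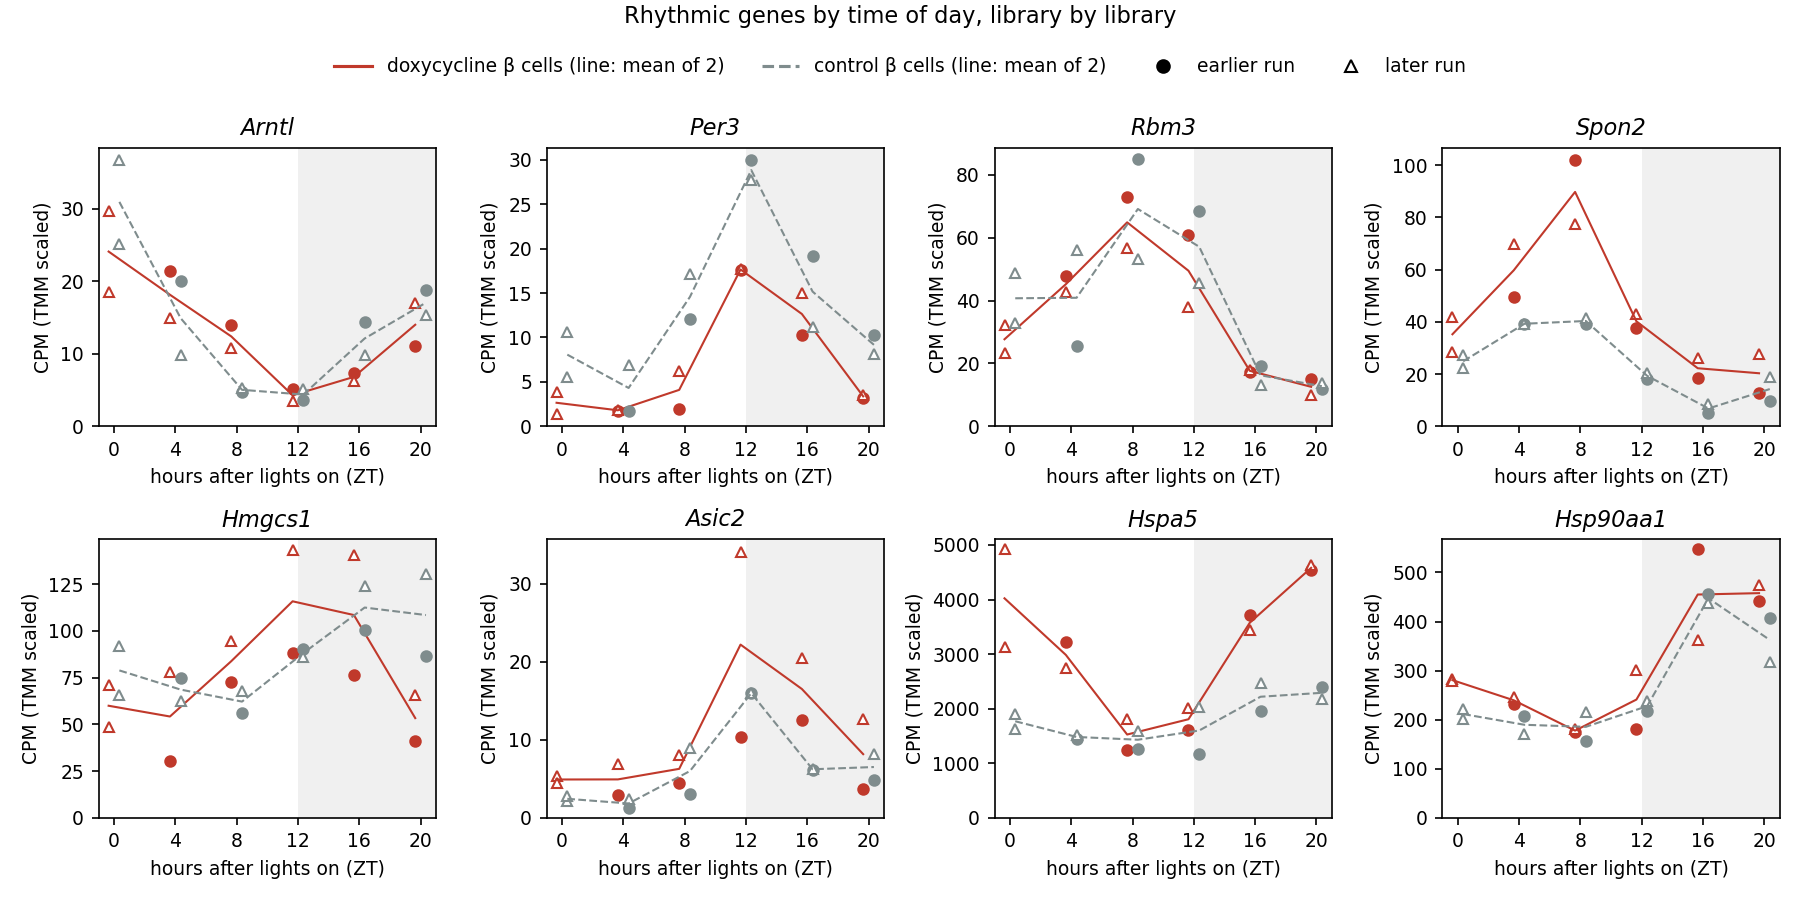
CPM (y axes, linear from 0) of 8 genes by hours after lights on (x axes) in doxycycline β cells (red, solid line through the mean of 2) and control β cells (grey, dashed); filled circles are earlier-run and open triangles later-run libraries, and grey shading is the dark phase. In doxycycline β cells Rbm3 and Spon2 were high around ZT8, Per3, Asic2 and Hmgcs1 around ZT12, and Hspa5 and Hsp90aa1 late in the night.

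The cold-inducible pair peaked in the light phase. Rbm3 and Cirbp encode RNA-binding proteins whose mRNAs rise when cells cool and fall when they warm. Rbm3 (chromosome X, 8138975 to 8145880, minus strand) had 23.2 and 32.2 CPM at ZT0, 47.7 and 42.6 at ZT4, 72.9 and 56.8 at ZT8, 60.96 and 37.98 at ZT12, 17.3 and 17.99 at ZT16 and 15.1 and 10.1 at ZT20. The 4 libraries of ZT16 and ZT20 held 10.1 to 17.99 CPM, below every other library. Its amplitude was 1.14 ± 0.12, a 4.85-fold span, with a peak at 7.3 ± 0.4 h (adjusted p = 0.00638). Cirbp (chromosome 10, 80165985 to 80172786, plus strand) had 44.8 and 35.7 CPM at ZT0, 61.5 and 58.1 at ZT4, 83.2 and 103 at ZT8, 77.3 and 38.5 at ZT12, 25.6 and 24.6 at ZT16 and 22.4 and 17.96 at ZT20. It too was lowest at ZT16 and ZT20, and highest at ZT8. Its amplitude was 1.05 ± 0.11 and its peak at 7.03 ± 0.4 h. Both kept an adjusted p under 0.05 whichever library was left out, with highest values of 0.0345 and 0.0345, and both peaked in each run alone between 6.5 and 8.1 h. Of 9 measured genes of the cold-inducible list 3 were called, against 6.03% of all genes. The remaining call was Srsf7, a splicing factor, which peaked at 22.1 h. Its adjusted p was above 0.05 without any 1 of the 10 libraries other than those of ZT0 (up to 0.101).

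Single metabolic genes with low p also peaked by day. Cpt1a, which carries long-chain fatty acids into mitochondria, had 44.8 and 32.2 CPM at ZT0, 49.7 and 60.3 at ZT4, 72.3 and 96.9 at ZT8, 76.5 and 65.1 at ZT12, 30.1 and 54.4 at ZT16 and 32.5 and 39.8 at ZT20. Both ZT8 libraries and both ZT12 libraries lay above all others. Its amplitude was 0.66 ± 0.09 and its peak at 8.98 ± 0.5 h. Eci2, an isomerase needed to oxidise unsaturated fatty acids, had 0.55 ± 0.05 at 8.6 h. G6pc2, the islet glucose-6-phosphatase that opposes glucokinase, was abundant. It had 2675 and 2722 CPM at ZT0, 3871 and 4096 at ZT4, 5298 and 5605 at ZT8, 4435 and 3739 at ZT12, 2474 and 2043 at ZT16 and 2838 and 2279 at ZT20, an amplitude of 0.59 ± 0.08 and a peak at 7.3 ± 0.5 h, and its ZT8 libraries were the highest. All 3 calls held whichever library was left out (adjusted p up to 0.0451 for Cpt1a, 0.0297 for Eci2 and 0.0443 for G6pc2). Of 21 measured genes of glucose entry and glycolysis, G6pc2 among them, 3 were called, against 6.03% of all genes, with called peaks from 7.3 to 22.9 h. Fitted peaks of 4 of the 21 lay between ZT6 and ZT12, against 28.6% of all genes.

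The lowest p of all genes belonged to Eva1b (chromosome 4, 126147744 to 126149875, plus strand), which encodes a small membrane protein. It had 22.6 and 20.3 CPM at ZT0, 33.6 and 32.6 at ZT4, 40.2 and 40.4 at ZT8, 37.6 and 33.8 at ZT12, 23.1 and 20.9 at ZT16 and 14.98 and 16.6 at ZT20, with an amplitude of 0.66 ± 0.05, a peak at 8.1 ± 0.3 h and an adjusted p of 0.001. The 4 libraries of ZT8 and ZT12 stood above the rest, and the 2 of ZT20 below. Slc4a10, a bicarbonate transporter that loads bicarbonate with sodium, had 0.52 ± 0.05 at 6.8 h. Spon2, a secreted matrix protein, had 41.99 and 28.5 CPM at ZT0, 49.6 and 69.9 at ZT4, 102 and 77.6 at ZT8, 37.5 and 42.97 at ZT12, 18.3 and 26.2 at ZT16 and 12.9 and 27.7 at ZT20. It was highest at ZT8, and the 4 night libraries of ZT16 and ZT20 were below every other. Its amplitude was 1.09 ± 0.12 and its peak at 6.9 ± 0.4 h.

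Further genes among those named also peaked by day, and their roles differed. The magnesium transporter Slc41a3 had an amplitude of 1.28 ± 0.17 at 5.9 h, a 5.90-fold span (adjusted p = 0.0525 without ZT20 replicate 1). The galactosidase-like Glb1l2 had 0.68 ± 0.09 at 7.3 h. Slc7a4, of the cationic amino acid transporter family, had 0.39 ± 0.05 at 5.04 h. Dpy19l3, which attaches mannose to tryptophan, peaked earlier, at 3.8 h with 0.77 ± 0.09. Dnah9, a dynein heavy chain of motile cilia, had 0.94 ± 0.13 at 10.5 h (adjusted p = 0.068 without ZT20 replicate 1). Nqo1, an NRF2 target, was called at 0.97 ± 0.20 and 6.1 h but on a mean level of few CPM, with values of 0.717 to 4.89 CPM. Its adjusted p exceeded 0.05 without any 1 of 10 libraries, all but ZT0 replicate 1 and ZT4 replicate 2 (up to 0.142).

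Around lights off the sterol pathway peaked. This pathway makes cholesterol from acetyl-CoA, and its genes are switched together by SREBP2 when membranes lack sterol. Of 32 measured genes of sterol and fatty acid synthesis, 12 were called, against 6.03% of all genes, with peaks from 11.2 to 17.1 h. The median amplitude of all 32 was 0.34. Hmgcs1 (chromosome 13, 119690379 to 119708260, plus strand), an early enzyme of the pathway, had 71.1 and 48.8 CPM at ZT0, 30.4 and 78.03 at ZT4, 72.9 and 94.7 at ZT8, 88.2 and 144 at ZT12, 76.6 and 140.5 at ZT16 and 40.9 and 65.9 at ZT20. The later-run libraries were higher than the earlier-run ones at every shared time, and in each run ZT12 was the highest, with ZT4 and ZT20 below ZT8, ZT12 and ZT16. Its amplitude was 0.73 ± 0.09 and its peak at 12.6 ± 0.5 h (adjusted p = 0.00912). The earlier run alone gave 0.91 at 12.5 h and the later run alone 0.65 at 12.6 h.

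Insig1, the sterol sensor's retention protein, had 175 and 72.9 CPM at ZT0, 49.7 and 137 at ZT4, 197 and 239.8 at ZT8, 183 and 384 at ZT12, 118 and 209 at ZT16 and 54.9 and 117 at ZT20, an amplitude of 0.93 ± 0.16 and a peak at 11.2 ± 0.6 h. Again replicate 2 was above replicate 1 at ZT4 to ZT20. Msmo1 and Hsd17b7, which trim the sterol ring, had 0.49 ± 0.07 at 13.6 h and 0.62 ± 0.09 at 11.9 h. Stard4, which carries cholesterol between membranes, had 0.54 ± 0.08 at 11.7 h. Lss, lanosterol synthase, came later, with 0.40 ± 0.06 at 17.1 h. The call of Hmgcs1 held whichever library was left out. Adjusted p-values of the others were 0.0525 without ZT20 replicate 1 for Msmo1, 0.0526 without ZT20 replicate 1 for Hsd17b7, 0.059 without ZT20 replicate 1 for Stard4, 0.0524 without ZT12 replicate 1, 0.0597 without ZT12 replicate 2 and 0.0882 without ZT20 replicate 1 for Insig1, and 0.0513 without ZT8 replicate 1 and 0.0544 without ZT20 replicate 1 for Lss. The list's count was 2 without ZT20 replicate 1, 7 without ZT8 replicate 1, 7 without ZT12 replicate 2 and 4 with the replicate block. In these fits 0.262%, 0.604%, 2.98% and 2.20% of all genes were called, in the same order. Peaks of 19 of the 32 lay between ZT12 and ZT18 in the earlier run alone and of 18 in the later run alone, against 20.98% and 23.9% of all genes.

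Further single genes peaked early in the night. Asic2, a proton-gated sodium channel, had 5.38 and 4.45 CPM at ZT0, 2.93 and 6.92 at ZT4, 4.53 and 8.04 at ZT8, 10.3 and 34.1 at ZT12, 12.6 and 20.4 at ZT16 and 3.65 and 12.7 at ZT20. Its ZT12 values differed widely between runs, but ZT12 and ZT16 were the highest times in each run. Its amplitude was 1.27 ± 0.14 and its peak at 13.8 ± 0.4 h. Cacna1d, the pore subunit of the calcium channel CaV1.3, had 0.32 ± 0.05 at 13.3 h. Mdm1, a centriolar microtubule-binding protein, had 0.69 ± 0.08 at 15.4 h and the chromatin remodeller Chd5 0.42 ± 0.05 at 15.1 h. These 4 calls held whichever library was left out. Of 23 ion channels of secretion, Cacna1d among them, 2 were called, against 6.03% of all genes. Fitted peaks of 17 of the 23 lay between ZT6 and ZT12, against 28.6% of all genes, and of 3 between ZT12 and ZT18, against 21.5%.

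Rgs2, which ends signalling of Gq-coupled receptors, had the widest span of this group, 7.02-fold, with 33.7 and 13.5 CPM at ZT0, 24.4 and 29.8 at ZT4, 28.8 and 42.04 at ZT8, 141 and 284 at ZT12, 30.3 and 84.6 at ZT16 and 45.3 and 60.6 at ZT20. The 2 ZT12 libraries stood above all others, and its amplitude was 1.41 ± 0.28 at 13.3 h. Its adjusted p was 0.0517 without ZT4 replicate 2, 0.0693 without ZT8 replicate 1, 0.0826 without ZT20 replicate 1, 0.0836 without ZT12 replicate 1 and 0.0839 without ZT12 replicate 2. Of 22 fasting, FOXO or glucocorticoid targets, 3 were called, against 6.03% of all genes, namely Cpt1a, Fkbp5 and Tsc22d3, the last 2 being induced by glucocorticoids. Fkbp5 had 0.66 ± 0.11 at 12.1 h (adjusted p = 0.0515 without ZT12 replicate 1, 0.0611 without ZT8 replicate 1 and 0.0757 without ZT20 replicate 1). Tsc22d3 had 0.58 ± 0.12 at 13.9 h and an adjusted p of up to 0.0904 without ZT8 replicate 1 or either library of ZT12, ZT16 or ZT20.

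Late in the night the protein folding machinery of the endoplasmic reticulum (ER) peaked. Proinsulin folds in the ER, and the unfolded protein response raises chaperones there when the load grows. Of 43 measured ER chaperone and folding genes, 23 were called, against 6.03% of all genes, all with peaks between 19.0 and 23.3 h. Called or not, 36 of the 43 had fitted peaks between ZT18 and ZT24, against 30.1% of all genes. Hspa5 (chromosome 2, 34771970 to 34777547, plus strand), the ER's HSP70 chaperone BiP, had 3123 and 4921 CPM at ZT0, 3222 and 2749.7 at ZT4, 1242 and 1810.2 at ZT8, 1604 and 2009 at ZT12, 3711 and 3439 at ZT16 and 4536 and 4626 at ZT20. The 4 libraries of ZT8 and ZT12 held 1242 to 2009 CPM, and the other 8 held at least 2749.7 CPM. Its amplitude was 0.81 ± 0.11, a 3.09-fold span, with a peak at 21.3 ± 0.5 h (adjusted p = 0.0136, and 0.0598 without ZT20 replicate 1). The earlier run alone gave 1.07 at 21.8 h and the later run alone 0.70 at 21.03 h.

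Pdia4, a disulfide isomerase, had 458 and 603 CPM at ZT0, 398 and 350.4 at ZT4, 167 and 216 at ZT8, 161 and 245 at ZT12, 528 and 498 at ZT16 and 652 and 742 at ZT20. The ZT8 and ZT12 libraries did not overlap with the others. Its amplitude was 0.97 ± 0.11 and its peak at 21.1 ± 0.4 h, and it was the ER gene whose call held whichever library was left out (adjusted p up to 0.0384). Creld2, an ER-stress induced chaperone, had 1.02 ± 0.16 at 21.9 h, a 4.09-fold span. The co-chaperone Sdf2l1 had 0.84 ± 0.11 at 22.3 h. In the degradation arm the fit gave 0.48 ± 0.06 at 20.02 h for Sel1l, a subunit of the export complex for misfolded proteins, and 0.77 ± 0.12 at 19.02 h for Herpud1 of the same complex. Adjusted p-values were 0.0549 without ZT20 replicate 1 for Sdf2l1, 0.0526 without ZT20 replicate 1 for Sel1l, 0.0703 without ZT8 replicate 2, 0.0759 without ZT8 replicate 1 and 0.0851 without ZT20 replicate 1 for Creld2, and 0.053 without ZT8 replicate 1 and 0.0849 without ZT20 replicate 1 for Herpud1. The list's count was 1 without ZT20 replicate 1, 4 without ZT8 replicate 1, 7 without ZT8 replicate 2, 11 without ZT12 replicate 1 and 15 without ZT20 replicate 2. Of all genes, these fits called 0.262%, 0.604%, 1.53%, 1.33% and 2.57%, in that order. Peaks of the list's genes lay between ZT18 and ZT24 for 37 of 43 in the earlier run alone and 31 of 43 in the later run alone. Of 19 genes of the PERK and ATF4 branch, which slows translation and raises amino acid synthesis, 2 (10.5%) were called, against 6.03% of all genes. Among them Ddit3 (CHOP) had 0.63 ± 0.12 at 19.9 h. Its adjusted p was 0.0537 without ZT16 replicate 1, 0.0634 without ZT12 replicate 1, 0.0885 without ZT8 replicate 2, 0.0937 without ZT8 replicate 1 and 0.112 without ZT20 replicate 1.

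Distances here are from the RefSeq start, which for Hspa5 is at 34772090, downstream of the gene start in the annotation used above. The ER stress element, to which ATF6 binds with the CCAAT factor NF-Y, was searched as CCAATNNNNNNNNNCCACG on both strands. Of 34 measured ER list genes with a promoter window, 9 held it in the 250 bases before the start, and of the 20 called ones 7 held it. Over all tested genes it stood in 18 of 11858 promoters (0.152%), 9 of which are the ER list genes. Hspa5 (chr2:34772004-34772064, plus strand) carries the letters forward, and Creld2 (chr15:88819499-88819559, plus strand) and Calr (chr8:84847054-84847114, minus strand), which encodes the chaperone calreticulin, carry them on the opposite strand. Capitals mark the 2 fixed parts of the motif.
Hspa5: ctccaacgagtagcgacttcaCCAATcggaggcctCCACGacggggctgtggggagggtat
Creld2: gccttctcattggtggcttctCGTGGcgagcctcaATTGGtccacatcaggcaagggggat
Calr: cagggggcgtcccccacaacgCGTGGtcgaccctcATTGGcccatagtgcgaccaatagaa

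**Figure D3:**
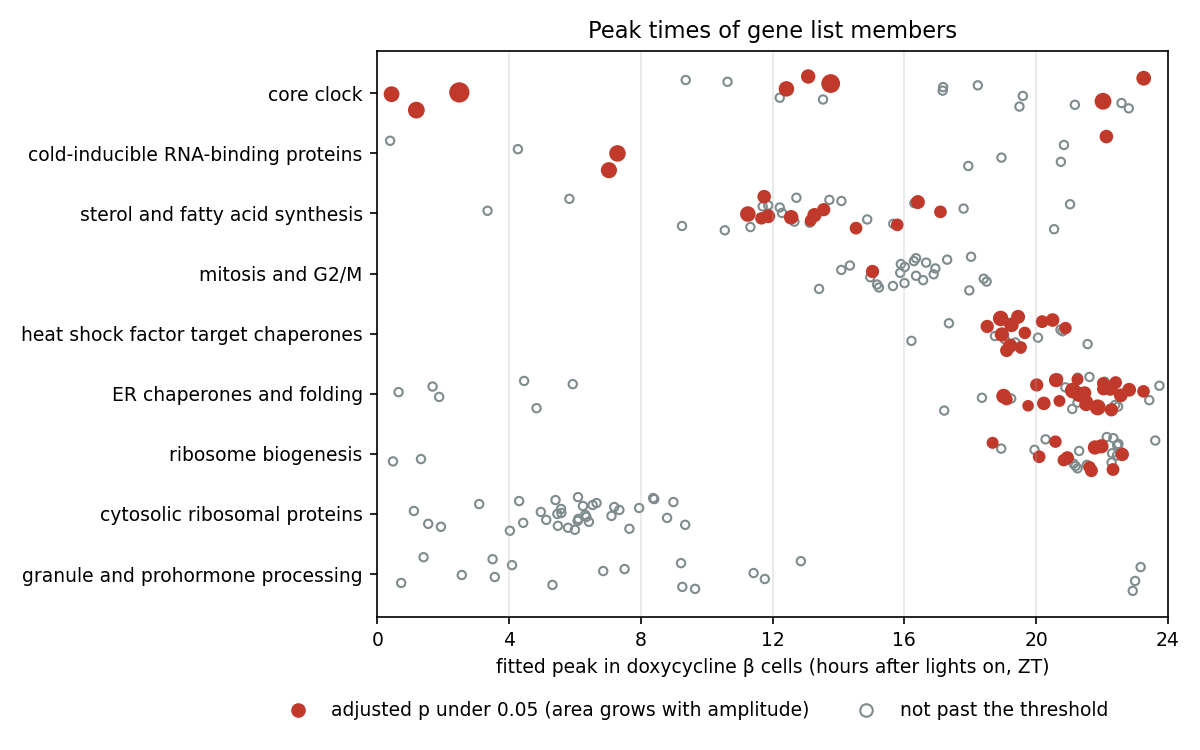
Fitted peak time in doxycycline β cells (x axis, hours after lights on) of the measured members of 9 gene lists (rows). Red points passed an adjusted p of 0.05, with area growing with amplitude, and open points did not; called sterol genes lie from 11.2 to 17.1 h, and called chaperone and ribosome biogenesis genes from 18.5 to 23.3 h.

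Cytosolic and mitochondrial chaperones also peaked at night. Heat shock factor 1 switches them on when proteins unfold or when temperature rises. Of 22 measured targets, 12 were called, against 6.03% of all genes, with peaks between 18.5 and 20.9 h, and 20 of the 22 peaked between ZT18 and ZT24, against 30.1% of all genes. Hsp90aa1, the inducible HSP90, had 282 and 279 CPM at ZT0, 233 and 246 at ZT4, 175 and 180.4 at ZT8, 181 and 301 at ZT12, 549 and 361 at ZT16 and 442 and 474 at ZT20. The 4 libraries of ZT16 and ZT20 lay above all others. Its amplitude was 0.68 ± 0.11 and its peak at 18.96 ± 0.6 h. The adaptor Stip1 had 0.62 ± 0.09 at 19.5 h, the HSP110 family member Hspa4 0.36 ± 0.05 at 20.9 h and the mitochondrial HSP60 gene Hspd1 0.42 ± 0.07 at 20.2 h. Their adjusted p-values were 0.0672 without ZT8 replicate 1 and 0.0715 without ZT20 replicate 1 for Hsp90aa1, 0.0516 without ZT8 replicate 1 and 0.0671 without ZT20 replicate 1 for Stip1, 0.0513 without ZT8 replicate 1 and 0.0707 without ZT20 replicate 1 for Hspa4 and 0.0642 without ZT8 replicate 1 and 0.0871 without ZT20 replicate 1 for Hspd1. The list's count was 0 without ZT20 replicate 1, 0 without ZT8 replicate 1, 6 without ZT8 replicate 2 and 7 without ZT16 replicate 1. Called shares of all genes were 0.262%, 0.604%, 1.53% and 1.99%, in the same order. A heat shock element, GAANNTTCNNGAA or TTCNNGAANNTTC, stood in 2 of 17 promoters of the list and in 55 of 11858 (0.464%) of all. When the mean log2 CPM of these chaperones was added to the fit as a covariate, 1 gene was called, and 439 of the 999 kept an unadjusted p under 0.05; that mean itself follows the time of day.

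Genes that build ribosomes shared these hours. Of 30 measured ribosome biogenesis genes, 11 were called, with peaks between 18.7 and 22.6 h, against 6.03% of all genes, and 28 of 30 peaked between ZT18 and ZT24, against 30.1% of all genes. Rrp12, which exports pre-ribosomes, had 24.1 and 37.6 CPM at ZT0, 23.6 and 20.4 at ZT4, 19.5 and 18.5 at ZT8, 16.3 and 12.2 at ZT12, 31.7 and 19.2 at ZT16 and 39.98 and 37.4 at ZT20. The 2 ZT20 libraries were above every library of ZT4, ZT8 and ZT12, whereas the ZT16 libraries differed between runs. Its amplitude was 0.67 ± 0.10 at 21.98 h (adjusted p = 0.0783 without ZT20 replicate 1). Nop16 had 0.39 ± 0.07 at 20.1 h (adjusted p = 0.0642 without ZT8 replicate 1, 0.0783 without ZT8 replicate 2 and 0.101 without ZT20 replicate 1). The list's count was 0 without ZT20 replicate 1, 1 without ZT8 replicate 1, 2 without ZT12 replicate 1, 3 without ZT12 replicate 2, 4 without ZT16 replicate 1, ZT20 replicate 2 or ZT8 replicate 2, 6 without ZT4 replicate 1, 19 without ZT0 replicate 1 and 4 with the replicate block. Shares of all genes called in these fits were, in the same order, 0.262%, 0.604%, 1.33%, 2.98%, 1.99%, 2.57%, 1.53%, 3.38%, 11.1% and 2.20%.

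Further single genes peaked at night. Cad, which performs the first steps of pyrimidine synthesis, had 218 and 275 CPM at ZT0, 161 and 148 at ZT4, 106 and 129 at ZT8, 102 and 136 at ZT12, 199.6 and 171 at ZT16 and 218 and 237 at ZT20. The ZT8 and ZT12 libraries held at most 136 CPM and all others more. Its amplitude was 0.58 ± 0.07 and its peak at 21.5 ± 0.5 h. The RNA helicase Ddx17 had 0.87 ± 0.10 at 20.3 h. The U1 splicing protein gene Snrpa had 0.57 ± 0.07 at 20.5 h (adjusted p = 0.0524 without ZT20 replicate 1). Gnpnat1, which makes a precursor of protein glycosylation, had 0.61 ± 0.08 at 21.3 h (adjusted p = 0.0526 without ZT20 replicate 1). Talin, Tln1, which ties integrins to actin, had 0.42 ± 0.05 at 18.7 h, the kelch protein gene Ivns1abp 0.45 ± 0.05 at 20.2 h and the mitochondrial glycine carrier Slc25a38 0.65 ± 0.08 at 20.8 h. Calls of Cad, Ddx17, Tln1, Ivns1abp and Slc25a38 held whichever library was left out.

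Among 26 immediate early genes, which respond within minutes to stimulation, 4 were called, against 6.03% of all genes, with peaks between 20.6 and 22.1 h. That count was 0 without ZT12 replicate 1, without ZT20 replicate 1, without either ZT8 library and with the replicate block. Those fits called from 0.262% to 2.20% of all genes. Called or not, 16 of the 26 had fitted peaks between ZT18 and ZT24, against 30.1% of all genes. Nr4a1 had 9.35 and 55.6 CPM at ZT0, 56.3 and 15.8 at ZT4, 32.4 and 8.87 at ZT8, 43.00 and 8.16 at ZT12, 75.7 and 38.2 at ZT16 and 97.1 and 86.9 at ZT20. The 2 ZT0 libraries, both of the later run, stood far apart. Its amplitude was 1.28 ± 0.26 and its adjusted p 0.0426, above 0.05 without any 1 of the 10 libraries other than those of ZT0 (up to 0.116). Crem had 0.77 ± 0.13 at 21.2 h (adjusted p = 0.0605 without ZT12 replicate 1, 0.0728 without ZT8 replicate 2, 0.0812 without ZT8 replicate 1 and 0.106 without ZT20 replicate 1).

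The hormone itself did not pass the test. Ins1 had 100023 and 63530.4 CPM at ZT0, 64799 and 75122 at ZT4, 84238 and 82323 at ZT8, 60315 and 74932 at ZT12, 81216 and 46395 at ZT16 and 82768 and 68679.6 at ZT20, with an amplitude of 0.15 ± 0.13 (adjusted p = 0.73). Its highest value and one of its lower ones were both at ZT0. Ins2 had an amplitude of 0.15 ± 0.13 (adjusted p = 0.706). None of 18 granule and prohormone processing genes were called by edgeR, against 6.03% of all genes. An unadjusted p under 0.05 in edgeR was reached by 2 of them, against 26.3% of all genes. DESeq2 called 2 of them, against 20.9% of all genes it tested. None of 35 cytosolic ribosomal protein genes were called by edgeR, with 3 at an unadjusted p under 0.05, and DESeq2 called 1. The shares over all genes are those just given. Of 20 β-cell identity genes 2 were called, against 6.03% of all genes, G6pc2 and the transcription factor gene Rfx6. Rfx6 had 0.32 ± 0.07 at 10.99 h, with an adjusted p above 0.05 without any 1 of 10 libraries, all but ZT0 replicate 1 and ZT8 replicate 2 (up to 0.139). Of 26 exocytosis genes 3 were called, against 6.03% of all genes, and 0 without ZT8 replicate 1 or ZT20 replicate 1. Those fits called 0.604% and 0.262% of all genes.

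Control β cells, fitted alone in the same way, had 244 calls of 15949 genes, 1.53%. That count was 17 without ZT8 replicate 1, 18 without ZT16 replicate 1, 30 without ZT12 replicate 2, 32 without ZT4 replicate 1, 36 without ZT20 replicate 1, 53 without ZT16 replicate 2, 80 without ZT4 replicate 2, 110 without ZT8 replicate 2, 119 without ZT0 replicate 2 and 728 without ZT20 replicate 2. Both groups called 124 genes, 12.4% of the doxycycline calls and 50.8% of the control calls. The difference of the waves, doxycycline minus control, was tested gene by gene and was called for 0 of 17128 genes (0%) in edgeR; 831 (4.85%) had an unadjusted p under 0.05, and DESeq2 called 6. Without ZT0 replicate 1 of the doxycycline group 1 gene was called. That the groups differ in rhythm was thus not shown by the difference in their numbers of calls. Summed acinar markers ran from 12.5 to 6064 CPM in doxycycline and 4.35 to 314 CPM in control β cells, and macrophage and dendritic cell markers from 143 to 1893 CPM in doxycycline and 57.5 to 431 CPM in control β cells; their part in the comparison was not tested.

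Peak times stood side by side as follows. Of 996 genes called in doxycycline β cells and fitted in both, the peak was later in doxycycline than in control β cells for 818 (82.1%), by a median of 1.71 h. The quartiles of that shift were 0.50 and 2.91 h. In the earlier run alone the median was 0.73 h, with 63.8% later, and in the later run alone 2.43 h, with 83.7% later. The 243 genes called in control β cells had a median shift of 1.55 h, with 81.5% later in doxycycline cells. All 8 called clock genes peaked later in doxycycline β cells, by a median of 1.84 h. Arntl peaked at 1.2 h against 22.8 h in control β cells, and Cry1 at 22.03 h against 19.5 h. Against α cells of doxycycline mice the median shift of the 999 genes was 0.29 h. Genes share their libraries, so these shares carry no p; gene by gene, the difference of the waves had an unadjusted p of 0.00713 for Arntl and 0.00328 for Cry1, and adjusted p-values of 0.948 and 0.948.

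Peak shifts of the ER and sterol genes had opposite signs. For 23 called ER genes the peak was later in doxycycline β cells for 22, by a median of 2.67 h, 0.63 h in the earlier run alone and 4.46 h in the later. Over all genes called in doxycycline β cells the median was 0.73 h in the earlier run alone and 2.43 h in the later. For 12 called sterol genes the peak was earlier for 11, by a median shift of -4.71 h, -2.52 h in the earlier run alone and -4.91 h in the later. Both sets were chosen by their call in doxycycline β cells. In control β cells 2 of 43 ER genes and 3 of 32 sterol genes were called, against 1.53% of all genes there. Median amplitudes of the 23 ER and 12 sterol genes were 0.27 and 0.34 in control β cells, against 0.51 and 0.52 in doxycycline β cells. The control peaks thus rest on smaller waves. Hspa5 in control β cells had 1629 and 1909.8 CPM at ZT0, 1446 and 1518 at ZT4, 1269 and 1593 at ZT8, 1165 and 2035 at ZT12, 1966 and 2472 at ZT16 and 2403 and 2178 at ZT20. Every control library was below the 8 doxycycline libraries of ZT0, ZT4, ZT16 and ZT20. The amplitude was 0.81 ± 0.11 in doxycycline and 0.37 ± 0.08 in control β cells, with an unadjusted p of 0.00254 for the difference of the waves (adjusted p = 0.948). Hmgcs1 in control β cells had 65.6 and 92.2 CPM at ZT0, 74.9 and 62.3 at ZT4, 56.4 and 68.1 at ZT8, 90.4 and 85.9 at ZT12, 101 and 124 at ZT16 and 86.5 and 131 at ZT20. Its control means were highest at ZT16 and ZT20, and the doxycycline libraries of ZT20 were both below those of the control group. Its wave of 0.73 ± 0.09 at 12.6 h in doxycycline and 0.43 ± 0.08 at 17.5 h in control β cells differed at an unadjusted p of 0.000105 (adjusted p = 0.602). An unadjusted p under 0.05 was reached by 11 of 32 sterol genes, 12 of 30 ribosome biogenesis genes and 9 of 43 ER genes, against 4.85% of all genes. The ER share was not particular to that list. Like shares were found for lysosome and autophagy (6 of 29), core clock (4 of 20) and β-cell identity genes (4 of 20). The same held for antioxidant and NRF2 targets (4 of 21) and cell cycle entry and inhibitors (3 of 15). Members of a list share their libraries, so these shares carry no p.

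**Figure D4:**
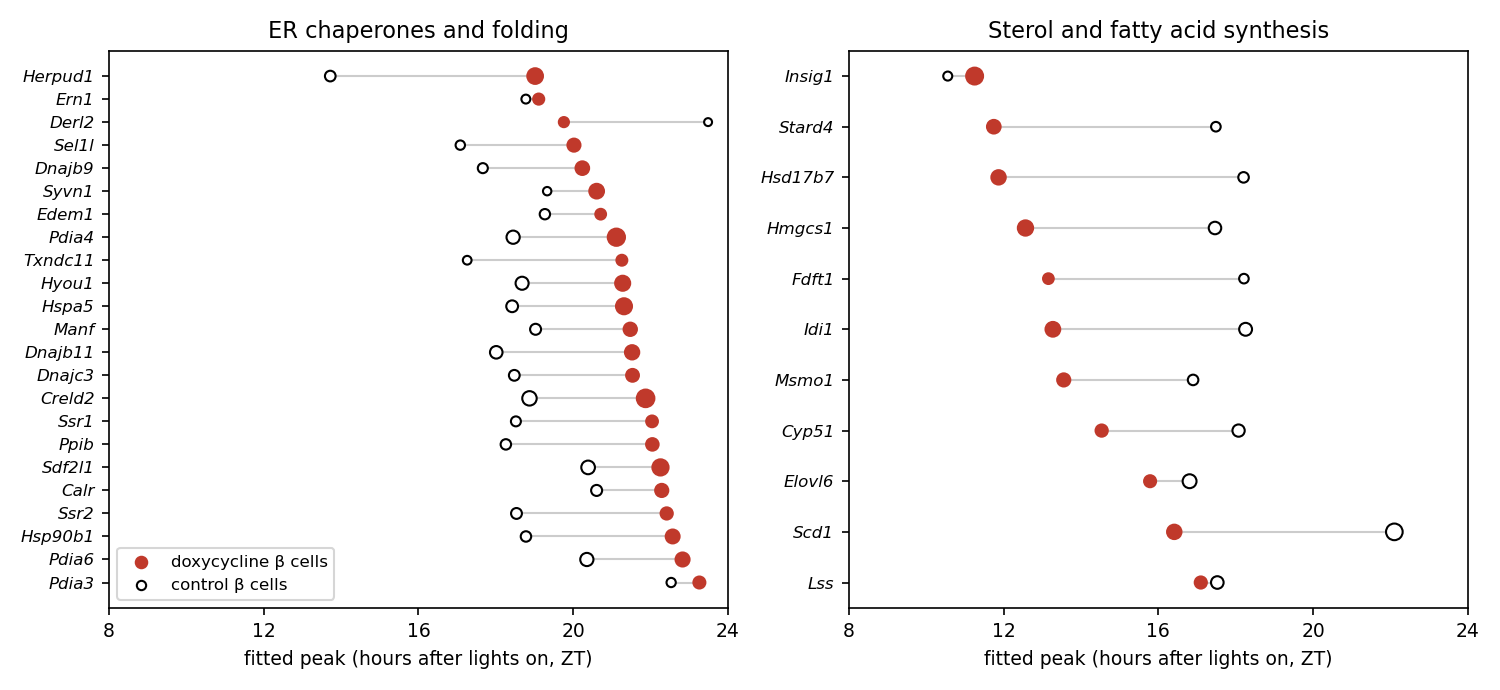
Fitted peak time (x axes, hours after lights on) of each called ER gene (left panel) and of 11 called sterol or fatty acid genes (right panel) in doxycycline β cells (red) and control β cells (white), joined by a line; point area grows with amplitude. Of 23 ER genes 22 peaked later in doxycycline β cells, and of the 11 sterol genes shown 10 peaked earlier. Genes were chosen by their call in doxycycline β cells, and control peaks are drawn whether called or not.

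Single genes with the lowest p in that test were of several kinds. Rbm15b, an adaptor of the RNA methylation writer, had an amplitude of 0.64 ± 0.09 at 19.9 h in doxycycline and 0.17 ± 0.07 at 15.7 h in control β cells (unadjusted p = 0.00015, adjusted p = 0.641). The tubulin gene Tuba4a had 0.66 ± 0.10 at 23.00 h against 0.39 ± 0.07 at 18.4 h in control β cells (unadjusted p = 0.000336). In the doxycycline group alone their adjusted p-values were 0.0675 without ZT20 replicate 1 for Rbm15b and 0.0544 without ZT20 replicate 1 for Tuba4a. For Rbm3 and Cirbp no difference was detectable at this depth and replication, with 1.14 ± 0.22 at 7.1 h and 0.85 ± 0.14 at 6.5 h in control β cells and unadjusted p-values of 0.973 and 0.531 for the difference.

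Against α cells of doxycycline mice the difference of the waves was called for 10 of 17512 genes (0.0571%), and 1479 had an unadjusted p under 0.05. The count was 4 with the replicate block, 29 without ZT0 replicate 1, 6 without ZT12 replicate 1 or ZT16 replicate 1 and 5 without ZT20 replicate 1 of the β-cell libraries. Sterol genes were among them. Hmgcs1 had an amplitude of 0.73 at 12.5 h in β cells and 0.25 at 23.02 h in α cells (adjusted p = 0.0105). Stard4 had 0.55 at 11.7 h in β cells and 0.38 at 0.014 h in α cells (adjusted p = 0.00207). In both the waves of the cell types stood about opposite. Over the 12 sterol genes called in β cells the median shift of the peak was -9.22 h, with quartiles of -10.5 and -4.39 h. Shifts were counted within 12 h either way, so for waves about opposite the sign is arbitrary. The α cells were not tested for rhythm on their own, so their peaks are fitted times only. For the 8 called clock genes the median shift was 0.56 h, and for the 12 heat shock genes 0.30 h.

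A 12 h wave added to the fit was called for 0 of 17158 genes by edgeR and for 0 by DESeq2, and 273 genes (1.59%) had an unadjusted p under 0.05.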

How the data were processed

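RNA of FACS-sorted cells was sequenced after TruSeq polyA preparation without strand marking. Per the submitters' processing notes, bcl2fastq, STAR and GRCm38 were used; the counting program is not given in the sources used here. The authors deposited estimated counts per gene, 1 table per run, unscaled. Low values step by 2, and all columns matched a sample (0 did not). The deposited RPKM tables were not used.

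Estimated counts were rounded and filtered (filterByExpr, minimum count 10, minimum total 15), then TMM-scaled and fitted in edgeR 4.0.16 (R 4.3.3) with cosine and sine of 24 h and a run term. Differences used interaction terms. Printed CPM are TMM-scaled over 48 libraries. DESeq2 1.42.0 and limma 3.58.1 were alternatives. Scripts were tested on simulated data. Replicate numbers coincide with the run at 5 of 6 times, so the block is a near copy of the run term that moves ZT0 replicate 1.

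Named genes are the 4 markers, the clock list, 20 lowest p, 12 largest amplitudes (mean of at least 10 CPM), 4 lowest p per list, 8 lowest p per difference test and islet hormones, with some not reported here. The 30 gene lists, members and tests were chosen with earlier results of these data known. Reads of overlapping or near-identical genes (Ins1 and Ins2 among them) could be split.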

Additional observations from a re-analysis of the deposited data

Results flagged for a closer look

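In 7 genes the 24 h wave of doxycycline β cells differed from that of α cells of doxycycline mice by an interaction test (edgeR, adjusted over all genes); each value is the log2 length of the difference between the waves. It was 0.923 ± 0.11 (SE) for Stard4 and 0.959 ± 0.13 for Hmgcs1, both sterol genes. Spon2 had 1.094 ± 0.15, with an amplitude of 1.10 in β cells and 0.21 in α cells. Aldh1l2, a mitochondrial folate enzyme, had 1.106 ± 0.14, with 0.26 at 22.00 h in β cells and 0.85 at 9.9 h in α cells. Its α-cell wave rests on a low mean of 5.87 CPM, against 53.6 CPM in β cells. Ctnnal1 had 0.809 ± 0.13, with 0.81 in β cells and 0.0035 in α cells. The glycosyltransferase gene B3gnt9 had 0.758 ± 0.11 and the kinase gene Wnk2 0.662 ± 0.10. Adjusted p-values ran from 0.00207 for Stard4 to 0.0354 for Ctnnal1.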

How the results depend on the processing

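Calls in doxycycline β cells (999) numbered 2997 with DESeq2, 172 without the run term, 364 with the replicate block, 113 in the earlier run alone, 0 in the later run alone, 0 with time as 6 levels, 404 with the acinar covariate, 1 with the heat shock chaperone covariate and 43 to 1827 when a library was left out. The count stayed within 1.5-fold under RLE size factors (1137), no filter (831), limma (1269), the macrophage covariate (956), without the ZT0 libraries (1194) and with counts halved (1167), the last chosen after seeing the data. Control β cells (244) had 1323 with DESeq2, 164 without the run term, 259 with the replicate block, 100 and 1 in the earlier and later run alone, and 17 to 728 with a library left out. Doxycycline minus control (0) had 6 with DESeq2, 1 in the earlier run alone and 0 to 1 with a library left out. Doxycycline β minus α (10) had 184 with DESeq2, 4 without the run term, 4 with the replicate block, 0 in either run alone and 5 to 29 with a library left out. The 12 h component (0) had 1 without the filter and 0 to 0 with a library left out. Nr1d1, not called, turned its fitted wave by over 6 h in the earlier run alone (amplitude 0.35), without the ZT0 libraries (0.18) and when a library was left out (0.079 to 0.31). No other gene named here turned under any of these settings. Of 66 genes named here and called, 65 lost the call with the heat shock chaperone covariate, 66 in the later run alone and with time as 6 levels, 47 in the earlier run alone, 28 without the run term, 16 with the replicate block, 6 with the acinar covariate, 2 with the macrophage covariate and without the ZT0 libraries, 1 with limma, and 0 to 39 when a library was left out. The cause of these moves was not tested.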

Other observations

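Of 24 measured genes of mitosis and G2/M, 1 (4.17%) was called in doxycycline β cells, against 6.03% of all genes. It was Foxm1, a transcription factor of dividing cells, with an amplitude of 0.49 ± 0.09 and a peak at 15.02 h. Its adjusted p exceeded 0.05 without ZT12 replicate 1, ZT16 replicate 1 or any library of ZT4, ZT8 or ZT20 (up to 0.0907). Fitted peaks of 21 of the 24 lay between ZT12 and ZT18, against 21.5% of all genes. In the earlier run alone 23 of the 24 did so and in the later run alone 13. In control β cells 18 of 24 did so. Of 24 DNA replication genes, 1 (4.17%) was called, against 6.03% of all genes. It was the helicase subunit gene Mcm2, with 0.37 ± 0.07 at 3.5 h. The adjusted p of Mcm2 was 0.0592 without ZT20 replicate 2, 0.0688 without ZT16 replicate 2, 0.0696 without ZT12 replicate 1, 0.0708 without ZT4 replicate 2, 0.0785 without ZT16 replicate 1, 0.0877 without ZT20 replicate 1 and 0.0899 without ZT8 replicate 1. None of the 35 cytosolic ribosomal protein genes, of which edgeR called none, had a fitted peak between ZT12 and ZT24, where 21.5% and 30.1% of all genes peaked before and after ZT18. The runs differed in their timing: 30 of the 35 peaked between ZT0 and ZT6 in the earlier run alone and 31 between ZT6 and ZT12 in the later run alone. Of 32 oxidative phosphorylation genes 4 were called, of 21 antioxidant and NRF2 targets 3 and of 29 lysosome and autophagy genes 2, against 6.03% of all genes. Of 21 type I interferon genes edgeR called none, with 4 at an unadjusted p under 0.05, and DESeq2 called 2. Over all genes edgeR called 6.03% and gave 26.3% an unadjusted p under 0.05, and DESeq2 called 20.9%.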
